A study of Rattus norvegicus with 12 samples.

Results

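Trem2, Gpnmb and Aif1 are macrophage genes that carried 4 of the 51255 probes of a rat microarray, and their signal was followed here in silica-exposed and control lungs at 14 and 28 days. The probes were all those that the study's table of probes changed by silica at day 28 gives under these symbols. The table was held for its first 1279 of 2275 rows, which name 1099 genes, so 3 of 1099 named genes are described. Trem2 and Gpnmb had 1 probe each and Aif1 had 2, and all 4 were well above background on 12 of 12 arrays. Because the day 28 contrast chose these probes, their day 28 values are a description without a test, and only the contrast at day 14 is tested.

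Male Wistar rats received 1.0 mL of a silicon dioxide suspension at 50 mg/mL into the trachea (model) or 1.0 mL of saline (control). The titles of the samples give the doses as 50 and 0 mg/kg. Lung RNA of 3 rats per group was hybridised singly, 1 rat per array, for model and control groups at day 14 and at day 28. No genetic change was part of the design. The published methods describe only rats killed at day 28, and state that lungs were picked for the arrays by their histology. Rats of day 14 do not appear there, so how their lungs were picked is not stated. The growth protocol of every sample speaks of day 28 while title and time point give day 14 for 6 of the 12 arrays, and the groups used here follow the title and time point.

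Trem2 is a receptor on the surface of macrophages and microglia that binds lipids and lipoproteins and signals through the adaptor Tyrobp and the kinase Syk. Gpnmb is a transmembrane glycoprotein of lysosomes and phagosomes whose transcription is known to be driven by the MiT/TFE family of transcription factors, and it is produced by macrophages loaded with lipid or debris. Aif1, also called Iba1, is a calcium-binding protein that bundles actin and takes part in membrane ruffling and phagocytosis, and it is used as a general marker of macrophages and microglia. In the lung, silica particles are taken up by alveolar macrophages, where Trem2 and Gpnmb are better known from lipid-laden or scar-associated cells, and Aif1 from the whole macrophage population.

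The values are normalised signals on the log2 scale, in which 1 unit is a 2-fold change. Between 60.5% and 69.5% of the probes of an array were well above background, with 60.5% to 61.1% in the silica day 28 arrays, and no probe was saturated. The 12 arrays came from 2 slides. The 3 silica arrays of day 28 and saline rat 1 of day 28 shared slide 1, and the other 8 arrays, day 14 included, shared slide 2. Saline rat 1 had 63.3% of its probes well above background, against 68.2% and 69.5% in saline rats 2 and 3 of day 28 on slide 2. The part of the slide in that share was not tested, and day 28 values are not adjusted for slide unless stated. The alveolar epithelial markers named on the array (Aqp5, Clic5 and Rtkn2, 3 of the 10 on the list) averaged between 11.50 and 11.99 in the saline lungs.

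The sequences below identify what each probe read. Capitals are not used, because no part of a probe stands out. Trem2 and the first Aif1 probe are printed in full, since their 60 bases hold a reading frame without a stop codon, and the first 30 bases are printed for Gpnmb and the second Aif1 probe, which hold none. Each of the 4 carries a RefSeq accession of its gene, which the study places on chromosome 9 for Trem2, chromosome 4 for Gpnmb and chromosome 20 for Aif1.
Trem2, A_42_P512838: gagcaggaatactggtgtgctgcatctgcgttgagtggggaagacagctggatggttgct
Gpnmb, A_44_P990376: gtgagctgtgcagaagtacatgactggtag
Aif1, A_44_P421534: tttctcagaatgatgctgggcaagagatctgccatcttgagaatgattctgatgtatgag
Aif1, A_44_P1087313: gggaaaagaagaagcagttgtgagccagag

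Trem2 was upregulated 19.0-fold in the silica lungs at day 14. Its log2 signal in saline rats 1, 2 and 3 of day 14 was 7.23, 6.15 and 6.10, and in silica rats 1, 2 and 3 it was 11.09, 10.46 and 10.67. Every silica lung was above every saline lung, in 9 of 9 pairs, and the lowest silica value exceeded the highest saline value by 3.24. The means were 6.49 ± 0.64 (SD, n = 3) and 10.74 ± 0.32 (SD, n = 3), a difference of 4.25 (SE 0.32) with a limma adjusted p of 0.0022. It was the 20th largest rise among the 33615 probes tested and the 9th among 1236 named probes. In whole lung, a change in the number of cells of a type and a change in the RNA per cell (more of either here, fewer cells or less RNA for genes that fell) cannot be told apart.

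At day 28 the Trem2 signal was 7.24, 7.19 and 6.43 in the 3 saline rats and 11.34, 10.85 and 10.80 in the 3 silica rats. The groups were again apart in 9 of 9 pairs. The saline mean was 6.95 ± 0.45 (SD, n = 3), the silica SD was 0.30 (n = 3), and the difference of the means was 4.04 (SE 0.26), or 16.5-fold. Day 28 minus day 14, the difference changed by -0.20 (SE 0.41). The order of the groups was silica day 28, silica day 14, saline day 28 and saline day 14. Both silica groups overlapped each other, as did both saline groups, and no silica value came near a saline one. Set against saline rat 1, the only saline lung of day 28 on the slide of the silica arrays, the day 28 difference was 3.75.

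Gpnmb followed the same course from a brighter probe, with a 15.7-fold upregulation at day 14. Its signal was 10.06, 9.30 and 9.08 in saline rats 1, 2 and 3 of day 14 and 13.76, 13.16 and 13.43 in silica rats 1, 2 and 3. The groups did not overlap. The means of 9.48 ± 0.51 and 13.45 ± 0.30 (SD, n = 3 each) gave a difference of 3.97 (SE 0.28), with a limma adjusted p of 0.0021 and rank 27 of the 33615 probes.

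At day 28 Gpnmb stood at 10.04, 9.83 and 9.87 in the saline lungs and at 14.14, 14.00 and 13.96 in the silica lungs. Both groups were tight, with means of 9.91 ± 0.11 and 14.03 ± 0.095 (SD, n = 3 each). The difference was 4.12 (SE 0.11), or 17.4-fold, and 3.99 within slide 1. The silica lungs of day 28 lay above those of day 14 by 0.58 without overlap, against a pooled SD of 0.22, while the saline groups overlapped. Silica day 28 and silica day 14 were on different slides, so for this step the day and the slide cannot be told apart.

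**Figure D1:**
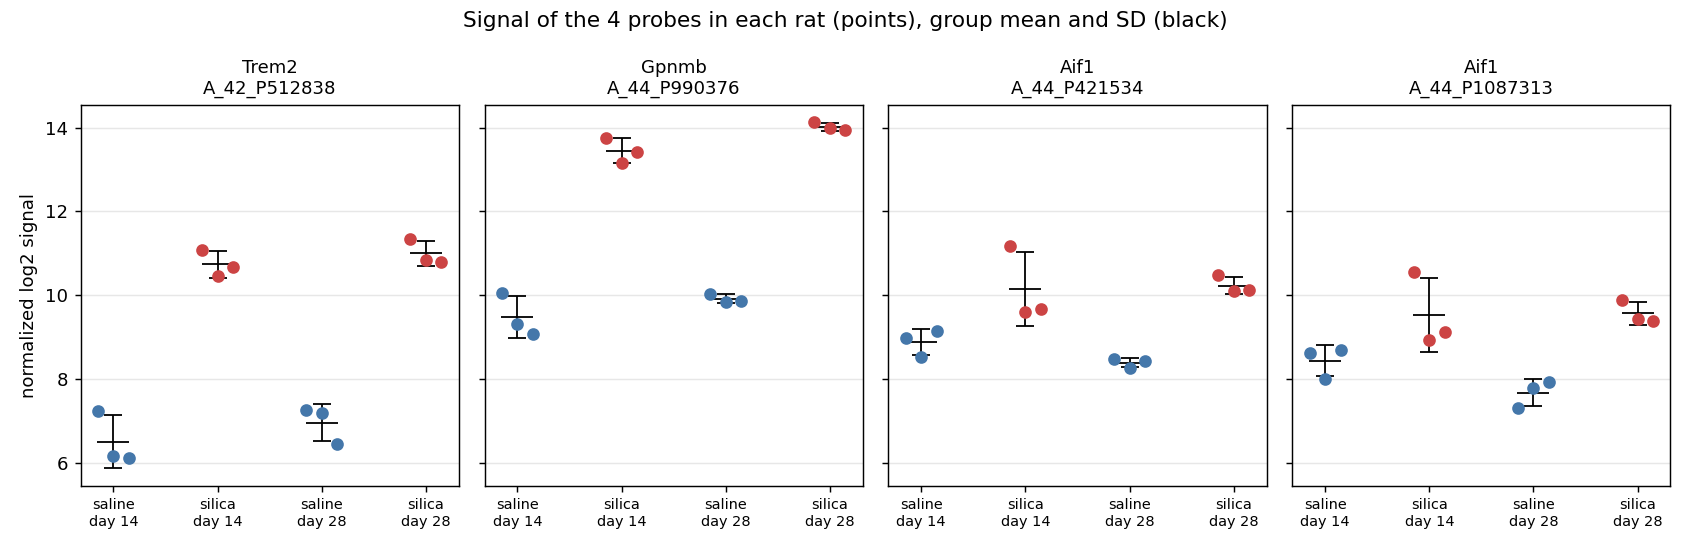
Normalised log2 signal (vertical axis) of the Trem2, Gpnmb and 2 Aif1 probes in each of the 12 rats, by group (horizontal axis), with saline in blue, silica in red and the group mean and SD (n = 3) in black. All silica points lie above all saline points of the same day in each panel, by about 4 log2 units for Trem2 and Gpnmb, and silica rat 1 of day 14 stands above its group for both Aif1 probes.

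Aif1 moved less than the other genes and was not called at day 14. Its probe A_44_P421534 read 8.98, 8.53 and 9.14 in saline rats 1, 2 and 3 of day 14 and 11.17, 9.60 and 9.66 in silica rats 1, 2 and 3. The silica values were again above the saline values in 9 of 9 pairs, but rat 1 was far from the other silica lungs. The means were 8.88 ± 0.31 and 10.15 ± 0.89 (SD, n = 3 each), a difference of 1.26 (SE 0.42) with a limma adjusted p of 0.10. Sharing one estimate of the spread over all 4 groups lowered that adjusted p to 0.034, and over all alternatives it ran from 0.034 to 0.25. That setting takes part of its spread from the day 28 arrays, which chose the probes, so that p carries the choice. Under the other alternatives the limma adjusted p ran from 0.071 to 0.25. Without silica rat 1 the difference was 0.75.

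The second Aif1 probe, A_44_P1087313, read 8.61, 8.0 and 8.69 in the saline lungs and 10.54, 8.94 and 9.12 in the silica lungs of day 14. It placed the same rat highest. The difference was 1.1 (SE 0.42) with a limma adjusted p of 0.15, which ran from 0.071 to 0.33 over the alternatives, and it was 0.59 without silica rat 1. The 0.071 came from the setting that shares the spread over all 4 groups, day 28 included. The probes share a transcript and are not independent.

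Both Aif1 probes showed less spread among the silica lungs of day 28. A_44_P421534 read 8.47, 8.27 and 8.43 in saline and 10.47, 10.10 and 10.12 in silica lungs. The difference was 1.84 (SE 0.14) or 3.59-fold, and 1.76 within slide 1. A_44_P1087313 read 7.31, 7.78 and 7.92 in saline and 9.88, 9.43 and 9.39 in silica lungs, a difference of 1.90 (SE 0.21) or 3.73-fold, and 2.26 within slide 1. Day 28 minus day 14, the differences changed by 0.58 (SE 0.44) and 0.80 (SE 0.47), less than 2 SE each. The silica means hardly differed between days, with steps of 0.084 and 0.035 against pooled SDs of 0.65 for both probes. The saline lungs of day 14 were above those of day 28 by 0.50 and 0.76 without overlap, also for saline rats 2 and 3 of day 28, which shared a slide with the day 14 arrays. The order of the Aif1 groups was therefore silica day 28, silica day 14, saline day 14 and saline day 28, with the saline days the other way round than for Trem2 and Gpnmb.

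At day 14, then, 2 of the 4 probes were called higher, those of Trem2 and Gpnmb. A call required a limma adjusted p of at most 0.05 and at least a 2-fold change, which 2.65% of all probes tested met in the upward direction. Of the 649 named probes that were higher in silica at day 28, 48.1% were called higher at day 14, so calls at day 14 were common among probes picked as these were. All 4 probes had every silica array above every saline array at day 14, which held for 15.5% of all probes. The adjusted p alone was met by 9.45% of all probes at day 14. At day 28 the same rule called 4.91% of all probes higher and 4.64% lower. The median difference over all probes tested was -0.011 at day 14 and -0.019 at day 28.

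The extra Aif1 signal in silica rat 1 of day 14 was not matched by Trem2 and Gpnmb. This lung exceeded the mean of silica rats 2 and 3 by 1.54 and 1.52 for the Aif1 probes, but by 0.52 for Trem2 and 0.46 for Gpnmb. The mean of the T cell markers (Cd8a, Icos and Cxcr3, 3 of 7 on the list) was 1.39 higher in rat 1 than in rats 2 and 3, and that of the monocyte markers (Ccr2, Vcan and Mnda, 3 of 7) was 0.96 higher. For the endothelial markers (7 of 9) the same quantity was -1.12 and for the alveolar epithelial markers (3 of 10) -1.28. It was 2.02 for the 1 mast cell marker, -1.88 for the 1 airway marker and -0.86 for the 1 haemoglobin gene. For the genes listed for dendritic cells it was 0.79, for fibroblasts 0.76, for neutrophils -0.51 and for B and plasma cells -0.50. It was 0.48 for interstitial macrophages and 0.34 for proliferation. For Fabp4 and Car4, the 2 named genes listed for resident alveolar macrophages, it was -0.64. The T cell mean ranged from 6.47 to 6.91 in saline and from 7.09 to 8.55 in silica lungs of day 14, the monocyte mean from 7.25 to 7.5 and from 7.73 to 8.89, and these markers were well above background on 12 of 12 arrays. The part of these cells in the Aif1 values was not tested.

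The ratio of one probe to another within the same lung compares how far the probes moved. At day 14 the rise of Trem2 exceeded that of Aif1 by 2.98 (SE 0.51) against A_44_P421534 and by 3.15 (SE 0.48) against A_44_P1087313. The rise of Gpnmb exceeded that of Aif1 by 2.71 (SE 0.50) and 2.88 (SE 0.48). Trem2 and Gpnmb differed from each other by 0.27 (SE 0.096), and the 2 Aif1 probes by 0.16 (SE 0.060). Since the 2 Aif1 probes share a transcript, a step of that size can occur between probes of the same gene. The step between Trem2 and Gpnmb is therefore not read as a difference between genes. In all 6 comparisons the ratios of the silica lungs did not overlap those of the saline lungs, and each had a two-sided exact permutation p of 0.10 (adjusted over the 6 comparisons, 0.10), the smallest that 3 against 3 lungs allow, so none could pass the threshold.

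The excess over Aif1 at day 28 was 2.20 and 2.14 for Trem2 and 2.28 and 2.22 for Gpnmb, given without a test. Trem2 and Gpnmb differed by -0.08 with overlapping ratios. Relative to the saline mean of the day, the ratio of Trem2 to A_44_P421534 was 2.30, 3.25 and 3.40 in silica rats 1, 2 and 3 of day 14 and 2.30, 2.18 and 2.12 in those of day 28. For Gpnmb the same ratio was 1.99, 2.96 and 3.18 at day 14 and 2.14, 2.37 and 2.32 at day 28. Silica rat 1 of day 14, with its high Aif1, lay lowest of its group in all 4 ratios to Aif1, and the silica lungs of day 28 lay close together.

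**Figure D2:**
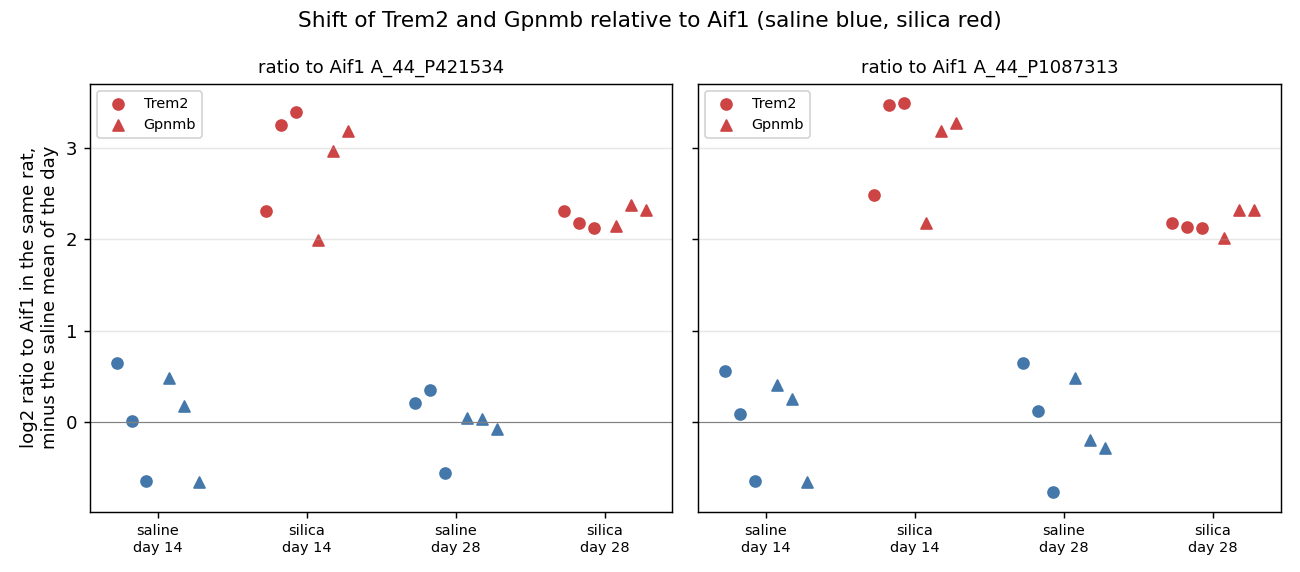
Log2 ratio of Trem2 (circles) and Gpnmb (triangles) to Aif1 in the same lung, shifted so that the saline mean of each day is 0 (vertical axis), by group (horizontal axis), with saline in blue and silica in red and 1 panel per Aif1 probe. The silica lungs lie about 2 to 3.5 log2 units above the saline lungs, with rat 1 of day 14 the lowest of its group and the 3 silica lungs of day 28 close together.

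The profile over all 12 lungs set Trem2 and Gpnmb beside each other. Likeness was measured as the root mean square difference of the log2 values after each probe was centred on its own mean, over 34097 probes, 1278 of them named. Gpnmb was the nearest to Trem2 at 0.238, and Trem2 the nearest to Gpnmb, with no closer probe of any name. Next came Hk3, a hexokinase of myeloid cells, at 0.36 from Trem2 and 0.35 from Gpnmb. The lung is one source for all of these probes, and the large step from saline to silica that they share fills most of the profile.

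The remaining neighbours of Trem2 were Lcn2 (0.49), a secreted lipocalin that binds siderophores, Bhlhe41 (0.54), a transcription factor of tissue macrophages among other cells, and Slc7a11 (0.54), the cystine and glutamate exchanger. For Gpnmb they were Slc7a11 (0.47), Pla2g7 (0.47), a phospholipase carried on lipoproteins, and Bhlhe41 (0.48). These neighbours had large differences of their own. At day 14 Hk3 was 3.60 higher in silica on the log2 scale, Lcn2 4.30, Slc7a11 3.99, Pla2g7 3.22 and Bhlhe41 3.12, and at day 28 the same genes differed by 3.38 to 4.47.

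Other genes were nearest to Aif1. The closest named gene to both of its probes was Clec4a3, a C-type lectin receptor of myeloid cells, at 0.14 for A_44_P421534 and 0.16 for A_44_P1087313. For the first probe Lst1, a leukocyte-specific transcript also on chromosome 20, came next at 0.18, before Lipa, the lysosomal acid lipase, at 0.19, Cst7, the cathepsin inhibitor cystatin F, at 0.21, and Tifab at 0.25. For the second probe the neighbours were Cst7 (0.18), the high-affinity IgG receptor Fcgr1a (0.22), and the actin regulators Tmsb10 (0.23) and Cotl1 (0.26). The 2 Aif1 probes were 0.19 apart, whereas Trem2 and Gpnmb were 1.35 to 1.46 from either of them.

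The sequence before the start of Trem2 and Gpnmb is shown because these genes moved together. RefSeq windows of GRCr8 were used, 250 bases long and ending at the base before the start, read 5′ to 3′ on the strand of the gene, and no entry was held for Aif1. Capitals mark matches to 4 motifs that were chosen after the sequences had been seen and were searched on both strands: the E-box CACGTG and the M-box TCACATG, both bound by MiT/TFE factors, the AP-1 site TGANTCA, and GAGGAAG, a core that the macrophage factor PU.1 can bind.
Trem2, chr9:20151780-20152029, minus strand: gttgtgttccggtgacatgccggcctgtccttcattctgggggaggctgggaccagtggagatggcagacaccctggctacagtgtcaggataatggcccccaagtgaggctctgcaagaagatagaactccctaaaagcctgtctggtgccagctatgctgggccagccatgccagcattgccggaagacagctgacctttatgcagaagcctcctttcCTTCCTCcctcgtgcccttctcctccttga
Gpnmb, chr4:79340878-79341127, plus strand: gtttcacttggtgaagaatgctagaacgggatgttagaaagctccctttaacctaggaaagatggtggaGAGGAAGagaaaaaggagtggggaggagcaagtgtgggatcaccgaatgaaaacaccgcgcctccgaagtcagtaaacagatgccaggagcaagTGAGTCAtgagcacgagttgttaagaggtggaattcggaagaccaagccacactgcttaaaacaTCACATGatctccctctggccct

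The Gpnmb window held the M-box 23 to 17 bases before the start, the AP-1 site 87 to 81 bases before it and the PU.1 core 181 to 175 bases before it. The Trem2 window held the PU.1 core on the opposite strand, 30 to 24 bases before the start, and none of the other motifs. The matches did not overlap, and CACGTG was in neither window. Of 33469 windows of the same length, 3.36% held the M-box, 6.34% the AP-1 site, 10.2% the PU.1 core and 5.59% the E-box. A match describes letters and not a bound site.

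The partners of Trem2 in the cell had smaller differences than the receptor. Of 18 genes on a list of Trem2 signalling, 7 had a named probe, and like all named genes these were selected by the study at day 28 in these rats, so their direction is not independent evidence. Tyrobp, the adaptor, and Apoe, a ligand, were not among the named probes and were not analysed here. In the limma fit 1 of the 7 was called higher at day 14 and 0 lower, beside 2.65% of all probes and 48.1% of the named probes higher at day 28 that were called higher, while 6 were higher and 0 lower at an unadjusted p below 0.05. The share of all probes at an unadjusted p below 0.05 was not computed, so counts at that threshold, here and below, have no background. The median difference was 0.81 at day 14 and 1.32 at day 28.

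The gene called was Trem3, a receptor of the same family, which rose by 1.08 (SE 0.21, limma adjusted p 0.028) at day 14. No gene of this list was called when any one of the 3 saline rats or silica rat 3 of day 14 was left out. Syk, the kinase recruited by Tyrobp, differed by 0.84, the adaptors Lat2 and Pik3ap1 by 0.96 and 0.72, and the exchange factor Vav1 by 0.81, with limma adjusted p from 0.032 to 0.049 and less than a 2-fold change. The adaptor Lcp2 differed by 0.67 and the phosphatase Ptpn6 by 0.42, with limma adjusted p of 0.085 and 0.22. All 7 genes were higher in silica at day 28, by 1.06 to 1.57, against 4.04 for Trem2. The lower end of that range reflects the choice of named probes at a 2-fold change on that day.

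The named genes of lipid-associated macrophages, the state in which Trem2 and Gpnmb are usually described, were mostly upregulated. They carry names only through the choice at day 28, so genes of the list without a change then were not counted. Of 28 genes 15 had a named probe, 12 of these were called higher at day 14 and 0 lower (2.65% of all probes and 48.1% of the named probes higher at day 28 were called higher), and the median difference was 2.0 at day 14 and 2.76 at day 28. With limma, 13 were higher and 1 lower at an unadjusted p below 0.05, a threshold without a computed background share. Without saline rat 3 of day 14, 7 were called higher.

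Fabp4, a fatty acid binding protein, had the largest measured difference of this group at day 14, 5.33 (SE 0.19), with 1 of 3 saline arrays well above background. Pla2g7 rose by 3.22 (SE 0.48) and Fabp5, the related binding protein, by 2.99 (SE 0.23). Msr1, a scavenger receptor, was called higher with a measured difference of 3.07 (SE 0.54), also with 1 of 3 saline arrays well above background. The syndecan Sdc3 differed by -0.81 (limma adjusted p 0.042, less than 2-fold) and the lipoprotein lipase Lpl by 0.19 (limma adjusted p 0.63). Cst7, by its brightest probe, was also not called, at 1.20 with a limma adjusted p of 0.16, and its other probe, the one near Aif1 by profile, differed by 0.96.

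The named lysosomal genes of the MiT/TFE programme, to which Gpnmb belongs by its known control, were upregulated in most cases. Of 32 genes 21 had a named probe, and 15 were called higher and 0 lower at day 14, beside the same 2.65% and 48.1%. At an unadjusted p below 0.05 in limma, 21 were higher and 0 lower, again without a background share. These genes were chosen by a change at day 28, so that count is not independent evidence. The median difference was 1.40 at day 14 and 1.42 at day 28, or 1.26 and 1.39 with 2 genes that were at background in saline set to their bounds. Without saline rat 1, 2 or 3 of day 14 the count called higher was 9, 7 and 5.

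Atp6v0d2, a macrophage subunit of the proton pump, was not well above background on any saline array, so its rise is a bound, at least 17.2-fold higher in silica at day 14 (limma adjusted p 0.0068). The cathepsin Ctsk was likewise not well above background in saline and was at least 2.32-fold higher (limma adjusted p 0.020). These bounds set the silica mean against the dimmest probe signal that was well above background on each saline array, or the probe's own signal where that was higher. The limma adjusted p values of both genes rest on saline signals that were not well above background, and they do not test the bounds. Both genes entered the fit through their silica arrays alone and count among the genes called higher. The cathepsins Ctsz and Ctsd, measured in both groups, rose by 2.10 and 2.06. The autophagy receptor Sqstm1 and the proton pump subunit Atp6v1c1 had the smallest differences, 0.63 and 0.71, under the 2-fold limit. Tfec, the one MiT/TFE factor with a named probe, differed by 1.58 (SE 0.44, limma adjusted p 0.063), with 2 of 3 saline arrays well above background. All 21 genes were higher in silica at day 28, the smallest by 1.02, a lower end that reflects the choice of named probes at a 2-fold change on that day.

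**Figure D3:**
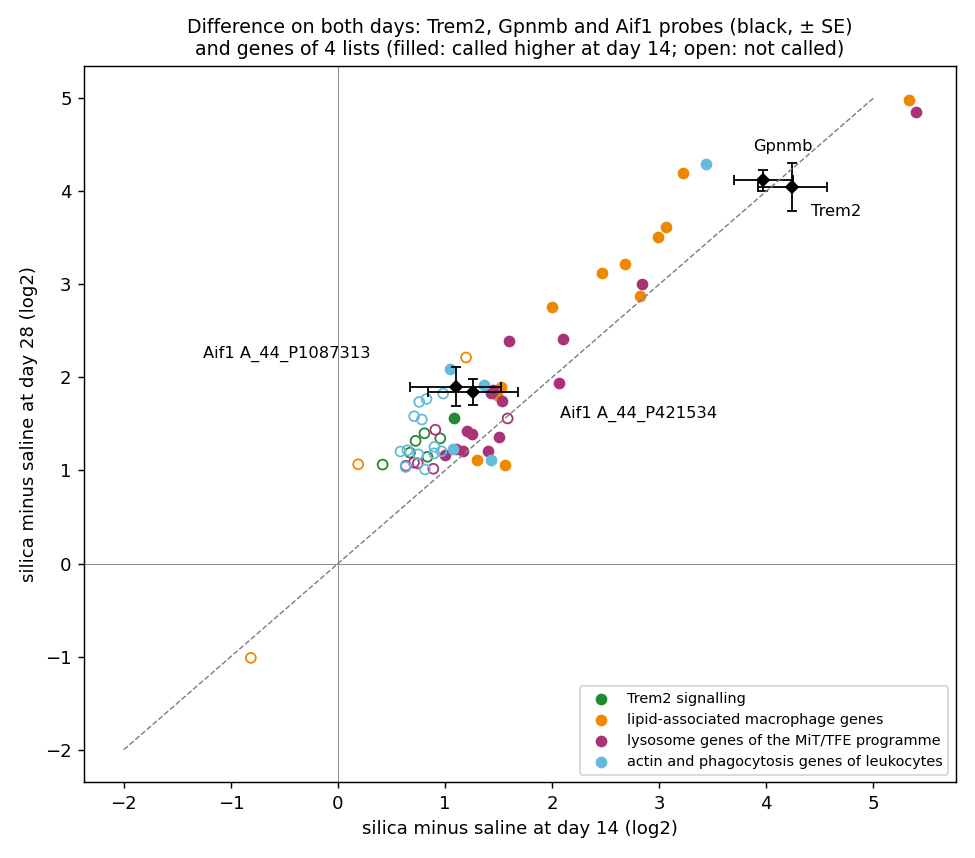
Silica minus saline on the log2 scale at day 14 (horizontal axis) and day 28 (vertical axis) for the Trem2, Gpnmb and Aif1 probes (black, with SE) and for the named genes of 4 lists (coloured, filled where called higher at day 14), with the line of equal difference dashed. Trem2 and Gpnmb lie near the line at about 4 on both axes, and both Aif1 probes lie above it, by 0.58 (SE 0.44) and 0.80 (SE 0.47). The points of Atp6v0d2 and Ctsk use saline signals that were not well above background.

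The named actin and phagocytosis genes of leukocytes, the group closest to the function of Aif1, mostly stayed under the 2-fold limit at day 14 and below Aif1. Of 24 genes 18 had a named probe, 5 were called higher at day 14 and 0 lower, beside 2.65% of all probes and 48.1% of the named probes higher at day 28, and the median difference was 0.86 at day 14 and 1.24 at day 28. With limma, 17 were higher and 0 lower at an unadjusted p below 0.05, for which no background share was computed. Without saline rat 1, 2 or 3 the count was 2, 1 and 1, and without silica rat 1 it was 3.

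The called genes were the integrin chain Itgam (3.44, SE 0.41), the adaptor Parvg (1.43, SE 0.24), the actin-binding Cotl1 (1.36, SE 0.27), the oxidase subunit Ncf4 (1.07, SE 0.18) and the integrin activator Fermt3 (1.04, SE 0.20). Itgam stood apart from the other 17. The smallest differences were those of the GTPase Rac2 (0.58) and the Arp2/3 subunit Actr3 (0.63), with limma adjusted p of 0.10 and 0.077. All 18 genes were higher in silica at day 28, by 1.01 to 4.30, with both Aif1 probes, at 1.84 and 1.90, inside that range.

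Markers of other cells moved with the silica groups as well. Of the endothelial markers, 5 of the 7 named were called lower at day 14 (Plvap, Cav1, Tek, Ptprb and Cdh5), against 2.34% of all probes and 35.1% of the 587 named probes that were lower in silica at day 28, with a median difference of -1.32, and 0 were without saline rat 1, 2 or 3, 3 without silica rat 1 and 1 without silica rat 3. Their mean lay between 11.13 and 11.39 in saline and between 9.19 and 10.40 in silica lungs of day 14. The alveolar epithelial markers had a median of -1.21 with 0 of 3 called in limma, although 3 were lower at an unadjusted p below 0.05. Of 8 proliferation markers 6 were called higher (2.65% of all probes, 48.1% of the named probes higher at day 28), with a median of 1.14, but 2 without silica rat 1, 2 without saline rat 1 and 0 without saline rat 2 or 3.

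Of the genes listed for resident alveolar macrophages 2 of 9 had a named probe, with Fabp4 called higher and Car4 lower, at -1.76. Which cells carried the signal of these genes, or of the other listed genes below, was not tested. Of the 6 named interstitial macrophage markers (of 12), Folr2 (2.0) and C1qa (1.68) were called higher and Lyve1 (-1.78) lower. Vsig4 was also called higher, at least 5.34-fold because no saline array of day 14 was well above background for it. Sepp1 differed by -0.78 (limma adjusted p 0.031, less than 2-fold) and Maf by 1.11 (limma adjusted p 0.089), and neither was called. Of the genes listed for neutrophils 2 of 3 named were called higher (Clec4d and Clec4e). Clec4e was at least 3.81-fold higher, because no saline array of day 14 was well above background for it. The calls of Vsig4 and Clec4e used these saline signals, and both genes were tested through their silica arrays alone. Of the monocyte markers 1 of 3 was called higher (Vcan) and of the T cell markers 1 of 3 (Icos). The counts called higher stand beside 2.65% of all probes and 48.1% of the named probes higher at day 28. For lower calls these shares were 2.34% of all probes and 35.1% of the named probes lower at day 28. Of the 2 named B and plasma cell markers (of 7), Mzb1 was called higher. Bank1 differed by -1.58 (limma adjusted p 0.079) and was not called. The haemoglobin gene Hbb-b1 was called lower. In limma 0 of 3 fibroblast, 0 of 2 dendritic, 0 of 1 mast cell and 0 of 1 airway markers were called. At an unadjusted p below 0.05 in limma these counts were 0, 1, 1 and 1. Leaving out any one saline rat left 1 interstitial marker higher and 0 lower, at most 1 neutrophil marker, 0 monocyte and 0 T cell markers, and without silica rat 1 there were 0 monocyte markers. The part of each cell type in the Trem2, Gpnmb and Aif1 values was not tested.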

How the data were processed

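Each rat lung was hybridised to 1 single-colour Agilent array. The deposited scanner files hold spot intensity and flags (scored 0 or 1) from Agilent Feature Extraction 10.7.1.1, whose processed intensity is background-subtracted within the array. The deposited series table holds log2 values, which the authors normalised by quantile in GeneSpring. Its columns matched the values used here (r of at least 0.99998, median 5.43).

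Here, control spots (1439 of 62972) and outlier flags were left out, spots of a probe averaged, processed intensities quantile-normalised over 12 arrays, and log2 taken. Probes well above background on all 3 arrays of a group of that day were tested with limma 3.58.1 in R 4.3.3, per day, with Benjamini-Hochberg adjustment and a call at adjusted p of at most 0.05 and 2-fold. The script was tested on simulated data. No sequencing depth exists for arrays, and 3 rats per group limit the precision.

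Probes carry names only through the study's table of probes changed at day 28, by probe and sequence (1279 of 1279 identical), and 1050 accessions matched RefSeq. Genes are represented by their brightest named probe. Lists are described by counts and medians. Named are the 4 largest and 2 smallest day 14 differences per pathway list, all of Trem2 signalling, and the 5 nearest profiles. Genes of called counts of 5 or fewer, the marker genes and Tfec were added after their values were seen. The members and lists were chosen with earlier results of these data known. Naming probes by matching their sequence to proteins was planned and not done. Protein values were not analysed here.

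Same-numbered rats did not deviate together (r between -0.17 and 0.06 over probes), so replicate numbers did not pair lungs.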

Additional observations from a re-analysis of the deposited data

How the results depend on the processing

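Trem2 and Gpnmb were called higher at day 14 in the main analysis and under each of 13 alternatives, with differences of 3.55 to 4.61 and 3.77 to 4.26. Leaving out 1 rat gave 4.05 to 4.61 for Trem2, 3.77 to 4.26 for Gpnmb, 0.75 to 1.53 for Aif1 A_44_P421534 and 0.59 to 1.40 for Aif1 A_44_P1087313. Aif1 A_44_P421534 was called under 1 of its 13 alternatives, with one spread over all 4 groups (1.26, limma adjusted p 0.034, against 0.071 to 0.25 under the others). That setting draws on the day 28 arrays that chose the probes. Its SE was 0.35 against 0.42 in the main analysis, and the cause of the smaller spread was not tested. Aif1 A_44_P1087313 was called under none of its 13. With the replicate number as a block, limma adjusted p was 0.0025 for Trem2 and Gpnmb and 0.071 and 0.082 for Aif1, which changed no call of these probes. At day 28 the difference moved to 3.52 for Trem2 with normexp background correction, to 4.23 for Gpnmb with 75th percentile scaling and to 3.99 with slide as a block, and to 2.26 for Aif1 A_44_P1087313 with slide as a block. Probes called at day 14 numbered 1678, 703 with normexp, 454 without the filter on dim probes, 1620 with the replicate block and 335 to 2400 without 1 rat (605, 360 and 335 without saline rat 1, 2 and 3). Of the pathway genes, 33 were called higher at day 14, 16 without the filter and 13 to 33 without 1 rat (21, 16 and 13 without saline rat 1, 2 and 3), 32 with the block. The choice of these genes at day 28 fixes their count on that day, 60 higher and 1 lower (Sdc3; 0 with normexp and 0 to 1 without 1 rat), so it supports nothing. Without the filter on dim probes, called higher were 7 lysosomal (main 15), 1 actin (main 5), 1 proliferation (main 6), 8 lipid-associated (main 12) and 0 Trem2 signalling genes (main 1), and 0 endothelial genes were lower (main 5). With normexp, 3 actin, 1 proliferation and 0 Trem2 signalling genes were called higher, and with the replicate block 0 Trem2 signalling genes were higher and 3 endothelial genes lower. Numbers of arrays, 3 per group, limit all of these counts.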
